A study of Mus musculus with 12 samples.

Results

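The genes described here are 10 members of the BCL2 family, the proteins that decide at the outer mitochondrial membrane whether a cell enters apoptosis: Bcl2, Bcl2l1, Bcl2l2, Mcl1, Bax, Bak1, Bad, Bid, Bik and Bcl2l11. They were chosen by symbol from the transcript table, keeping transcripts that matched or extended an annotated gene, and all 10 were found among 24516 gene symbols, as 30 of 71967 assembled transcripts. Total RNA was sequenced from whole testes of C57BL/6 mice aged 3, 6, 12 and 18 months (3M, 6M, 12M and 18M), with 3 mice per age and 1 library per mouse. All mice are labelled WT with no treatment, and age is the only difference named between the groups. One further transcript under the symbol Bcl2l1, which lay within an intron, was left out by this rule. The 12 libraries held between 50924104 and 71803379 reads assigned to transcripts, with a median of 56236682, and the 10 members took 13212 to 19027 reads of each library.

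Inhibitors such as BCL-2, BCL-XL (the product of Bcl2l1), BCL-W (Bcl2l2) and MCL-1 hold the effectors BAX and BAK in check. When effectors are released they assemble into pores in the mitochondrial outer membrane, cytochrome c leaves the mitochondrion, and caspases are activated. BH3-only proteins such as BAD, BID, BIK and BIM (Bcl2l11) carry only the short BH3 segment of the family and act upstream, by occupying inhibitors or by activating effectors. Apoptosis balances germ cell number in the testis, where mice lacking Bax have abnormal spermatogenesis and are sterile, and mice lacking Bcl2l2 lose their germ cells in adult life.

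The BH3 segment is the feature that all 10 genes share. The bases that code for its core are shown so that the members can be compared, each read from GENCODE vM21 transcripts on mm10, 5′ to 3′ on the coding strand, with the 6 codons of the core in capitals.

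Bcl2: ctgaccCTCCGCCGGGCTGGGGATgacttc
Bcl2l1: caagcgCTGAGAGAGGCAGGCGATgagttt
Bcl2l2: caagccATGCGGGCTGCTGGAGACgagttt
Mcl1: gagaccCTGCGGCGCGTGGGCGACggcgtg
Bax: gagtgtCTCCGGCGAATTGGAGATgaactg
Bak1: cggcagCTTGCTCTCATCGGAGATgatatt
Bad: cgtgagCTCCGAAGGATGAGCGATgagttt
Bid: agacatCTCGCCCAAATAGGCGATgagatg
Bik: ttgaggCTGGCCTGCATCGGCGATgagatg
Bcl2l11: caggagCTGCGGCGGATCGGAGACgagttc

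The core was searched as a leucine codon, any 3 codons, a glycine codon and an aspartate codon. In 8 of the 10 genes it occurred exactly once in the coding sequence. Bcl2l2 and Bad had no exact match, and the 1 match found in each when the first codon could also code for methionine and the fifth for serine is the one printed. In each gene the printed stretch of 30 bases lay within a single coding exon: chr1:106712578-106712607 for Bcl2, chr2:152829700-152829729 for Bcl2l1, chr14:54884511-54884540 for Bcl2l2, chr3:95659430-95659459 for Mcl1, chr7:45466000-45466029 for Bax, chr17:27022534-27022563 for Bak1, chr19:6950786-6950815 for Bad, chr6:120897292-120897321 for Bid, chr15:83543078-83543107 for Bik and chr2:128147144-128147173 for Bcl2l11.

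All 10 genes were detected in all 12 libraries, and their mean levels ran from 0.124 to 34.5 FPKM. Levels are FPKM, fragments scaled by transcript length and by library size, summed over the transcripts of a gene, and are given as mean ± SD over the 12 libraries. Bcl2l1, the gene of BCL-XL, was highest at 34.5 ± 1.57 FPKM and lay above 90.1% of all gene symbols. Bad followed at 23.3 ± 1.11 FPKM and Mcl1 at 19.1 ± 0.890 FPKM. The next group was Bcl2l2 at 6.44 ± 1.21, Bax at 5.21 ± 0.553, Bak1 at 5.12 ± 0.383 and Bik at 3.61 ± 0.481 FPKM. Bcl2l11 at 2.23 ± 0.197 and Bid at 2.03 ± 0.202 FPKM came near the bottom. Bcl2 itself, the founding member, was lowest at 0.124 ± 0.0327 FPKM with only 24 to 57 reads in a library. The ranges over 12 libraries overlapped between the neighbours Bcl2l2 and Bax, Bax and Bak1, and Bcl2l11 and Bid, so the ranges did not separate these pairs. The ranges of the other neighbours did not overlap. Compared within each library, Bcl2l2 was below Bax in 2 of 12, Bax below Bak1 in 5 and Bcl2l11 below Bid in 2. With CPM, reads scaled by library size after TMM normalisation, divided by the length of the longest transcript, 4 of the 10 genes kept their place in the order, with Bad below Mcl1, Bax below Bak1 and Bcl2l11 below Bid.

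**Figure D1:**
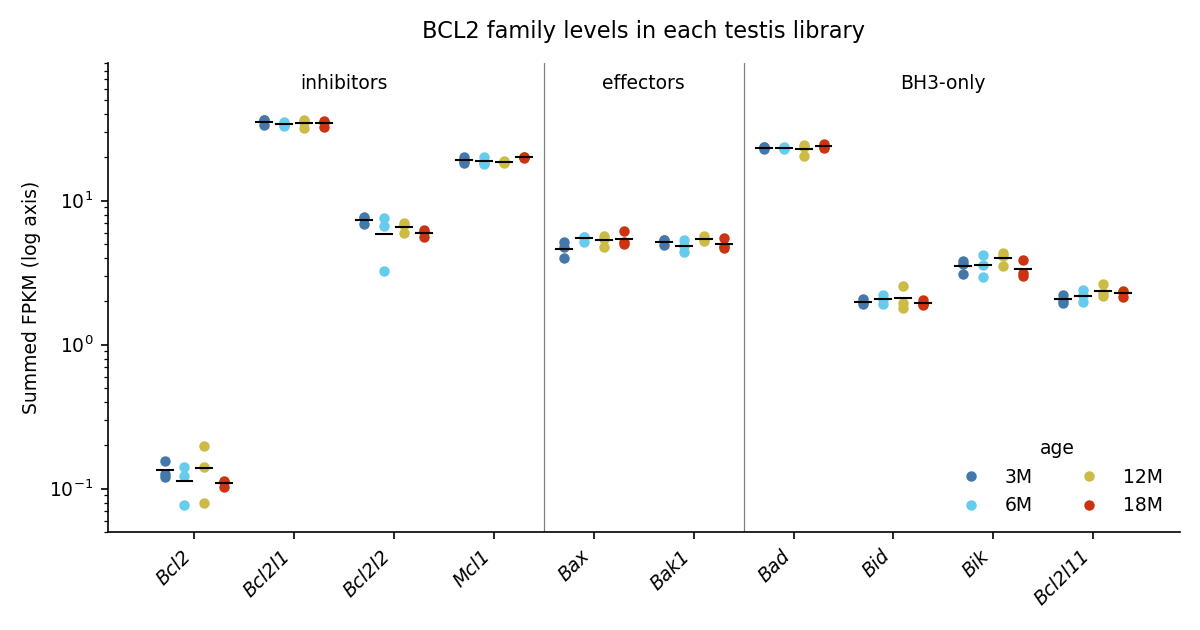
Summed FPKM of each gene (vertical log axis) in each of the 12 testis libraries, coloured by age, with a black line at the mean of the 3 mice of an age and the genes ordered by role. Bcl2l1, Mcl1 and Bad lie at 17.9 FPKM or more in every library and Bcl2 at 0.197 FPKM or less, and for 8 of the 10 genes the values at 3M and 18M overlap.

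Summed by role, the 4 inhibitors reached 56.9 to 64.0 FPKM per library, the 4 BH3-only genes 28.5 to 33.4 FPKM and the 2 effectors 8.92 to 11.3 FPKM. Bcl2l1 and Mcl1 together made up 86.9% to 94.1% of the inhibitor FPKM, and Bcl2 made up 0.132% to 0.320%. The inhibitors took 60.3% ± 1.36 of the FPKM of the family at 3M, 58.6% ± 1.16 at 6M and 58.7% ± 2.61 at 12M, and 59.1% ± 0.962 at 18M (SD, n = 3 mice each), and no test was run on these shares. In whole tissue, fewer cells of a type and less RNA per cell cannot be told apart in any of these values.

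Transcript levels of the family did not pass the test for a change with age in any comparison. The test was the quasi-likelihood test of edgeR on reads summed per gene, with Benjamini-Hochberg adjustment over all genes. In the linear trend on age over 12 libraries, 0 of 10 members had an adjusted p of 0.05 or less, beside 0.172% of 24950 genes tested, and 0 members had an unadjusted p that low, beside 15.4% of all genes. For any difference among the 4 ages the counts were again 0 and 0, beside 0.0794% and 9.04% of all genes. Between 3M and 18M, 0 members passed the adjusted p together with a log2 fold change of 1 or more, beside 0.0528%, and 1 member, Bcl2l2, was at an unadjusted p of 0.05 or less, beside 12.0%. DESeq2 with the same thresholds called 0 members in each comparison, although its adjusted p for Bcl2l2 between 3M and 18M was 0.0212.

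Neighbouring ages were compared in the same way. Between 3M and 6M, 0 members were called and 0 were at an unadjusted p of 0.05 or less by edgeR, beside 0.0611% and 3.94% of all genes. The comparison of 6M with 12M gave 0 and 0 members, beside 0.0325% and 7.49%. From 12M to 18M, 0 members were called and 1, Mcl1, was at an unadjusted p of 0.05 or less, beside 0.0203% and 3.57%. The median log2 fold change of the 10 members from 3M to 18M was -0.01, beside 0.01 for all genes tested.

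**Figure D2:**
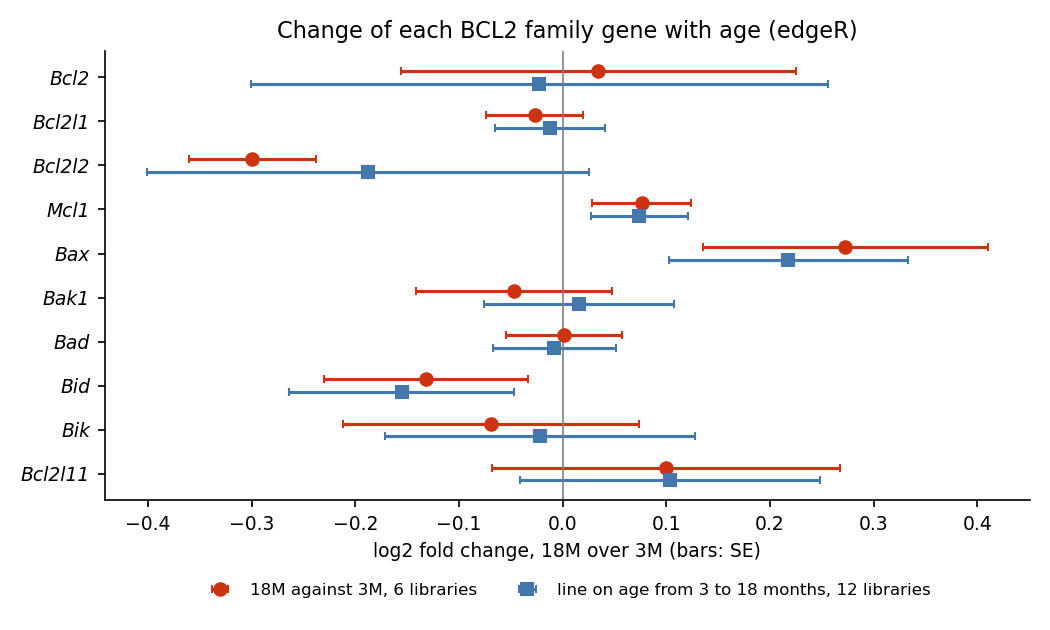
Change of each gene from 3M to 18M on the log2 scale (horizontal axis, bars are SE), as the direct comparison of 6 libraries (red circles) and as a line on age through 12 libraries (blue squares). Bcl2l2 at -0.30 and Bax at 0.27 lie farthest from 0 in the direct comparison, and the other 8 genes lie between -0.13 and 0.10.

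Bcl2l1 (chr2:152758473-152831728, minus strand), whose product sits on the mitochondrial outer membrane, was not called in any comparison. Its mean was 35.3 ± 1.55 FPKM at 3M, 33.9 ± 1.05 at 6M and 34.4 ± 2.24 at 12M, and 34.4 ± 1.84 at 18M (SD, n = 3 mice each). The log2 fold change from 3M to 18M was -0.03 ± 0.05 (SE; edgeR adjusted p = 0.847), with a 95% interval of -0.14 to 0.08.

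RefSeq places starts of Bcl2l1 at 3 positions, and the assembly gave reads to 2 of them that share the same coding sequence of 699 bases. The transcript from the start at 152830717, NM_001289716, took 89.3% of the gene's reads over all libraries, with a range of 82.8% to 96.3% among libraries. NM_009743, from the start farther upstream at 152831728, took 6.81%, ranging from 2.26% to 11.5%. The first exons were compared too, since each belongs to its own start. Coverage here is the mean depth that the assembler assigned to each transcript's exon, summed over the transcripts that hold the exon. It is an assignment of reads and not a count at each base, so where exons of different length overlap, the sum does not give the depth of the overlap alone. Coverage is not scaled by library size. Coverage of the bases shared by the first exons of NM_001289716, NM_001289717 and NM_001289739, which have the same start, was 39.9 to 77.8, and that of the first exon of NM_009743 was 9.47 to 18.8, so that the first start took 79.0% ± 5.33 of the sum (SD, 12 libraries). At 3M this share was 79.7%, 84.1% and 74.3%, and at 18M it was 85.8%, 74.8% and 75.2%. The 2 ages overlapped, with an exact two-sided permutation p of 1 (n = 3 against 3, where the smallest possible p is 0.1).

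The 250 bases before these 2 starts (RefSeq, GRCm38.p6, minus strand, 5′ to 3′) are shown because all 12 libraries had more coverage from the first of them than from the second.

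Bcl2l1 start 152830717: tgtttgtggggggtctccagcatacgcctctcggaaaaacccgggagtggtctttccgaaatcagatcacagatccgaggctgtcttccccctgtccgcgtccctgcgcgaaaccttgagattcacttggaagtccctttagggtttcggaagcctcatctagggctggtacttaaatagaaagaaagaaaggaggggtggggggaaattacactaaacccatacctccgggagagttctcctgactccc
Bcl2l1 start 152831728: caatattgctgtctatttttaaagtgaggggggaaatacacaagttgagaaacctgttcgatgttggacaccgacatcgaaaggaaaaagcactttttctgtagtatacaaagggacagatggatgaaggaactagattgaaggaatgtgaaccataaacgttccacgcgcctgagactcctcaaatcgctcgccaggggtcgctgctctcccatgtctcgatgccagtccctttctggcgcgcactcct

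The windows are chr2:152830718-152830967 and chr2:152831729-152831978. Neither held the TATA box letters TATAAA on either strand, which occurred in 12.4% of the 32851 promoters of the same length. The CCAAT box, searched as CCAAT, was also missing from both and occurred in 33.9% of all promoters, and the GC box, searched as GGGCGG, was missing from both and occurred in 32.7%. Their GC content was 53.2% and 47.6%, beside a median of 52.4% over all promoters. The window before the start of Bcl2, the member with the lowest level, had a GC content of 74.8% and 7 matches to GGGCGG or its complement. Among members of high level, Mcl1 had 64.4% and 1 match. The windows of Bad had 62.8% with 3 matches and 64.8% with 0. Level was not compared with these values over the members. None of this says which factors act there.

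Mcl1 (chr3:95658721-95663178, plus strand), which codes for a short-lived inhibitor that many cells need to survive, was assembled as a single transcript, NM_008562. Its levels were 18.9, 20.1 and 18.2 FPKM at 3M, 17.9, 18.3 and 20.0 at 6M, and 18.6, 18.4 and 19.0 at 12M. At 18M the 3 mice stood at 20.2, 19.9 and 20.1 FPKM, all above the 3 mice at 12M and close to the highest values of 20.1 FPKM at 3M and 20.0 at 6M. How often 12M and 18M fail to overlap over all genes was not counted. The log2 fold change from 12M to 18M was 0.11 ± 0.04 (SE), with an unadjusted p of 0.0431 and an adjusted p of 0.99997 in edgeR. Over the 15 months from 3M to 18M the line on age gave 0.07 ± 0.05 on the log2 scale (adjusted p = 0.472).

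Bcl2l2 (chr14:54883425-54888234, plus strand), the gene of BCL-W, was the member with the smallest p between 3M and 18M. Its levels in CPM were 28.6, 30.9 and 30.0 at 3M and 25.2, 24.3 and 23.1 at 18M, so the 2 ages did not overlap. The log2 fold change was -0.30 ± 0.06 (SE), a level at 18M of 0.813 times that at 3M, with an unadjusted p of 0.00207 and an edgeR adjusted p of 0.341 and a 95% interval of -0.45 to -0.15 before adjustment, and it was lower in 3 of 3 mice at 18M than in each mouse at 3M. In FPKM, 2 of the 10 members, Bcl2l2 and Bcl2, had a range at 18M wholly below that at 3M, beside 8.37% of all genes, and 0 members had one wholly above, beside 8.36%.

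The middle ages of Bcl2l2 were scattered. The CPM values were 27.5, 30.7 and 13.1 at 6M and 27.0, 29.3 and 24.4 at 12M. The third 6M mouse stood apart, since the next lowest library was at 23.1 CPM. With this library the line on age gave -0.19 ± 0.21 on the log2 scale over 15 months (adjusted p = 0.711), and without it -0.31 (adjusted p = 0.109). Coverage of the last exon was 16.2 reads per base in this library against 38.2 to 53.5 in the other 11, while coverage of chr14:54884374-54884813, which holds the start of the coding sequence, was 32.9 against 19.5 to 47.7. Both sums hold the depth of exons that span the stretch between them. The same library had the highest summed FPKM of the Sertoli (601), Leydig (1654), macrophage (27.5), spermatogonia (57.2) and peritubular and endothelial (28.5) marker lists, and the lowest of the spermatid (20912) and spermatocyte (391) lists. Their part in the Bcl2l2 value was not tested.

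The reads of Bcl2l2 were divided among 4 transcripts with 10% or more each. MSTRG.6324.2 took 34.0%, MSTRG.6324.4 took 33.1%, MSTRG.6324.5 took 18.0% and the RefSeq transcript NM_007537 took 14.7%. The division was unstable: NM_007537 held 0.403% to 59.1% of the reads among libraries, with 59.1% in 1 mouse at 3M beside 4.81% and 2.39% in the other two. When only transcripts equal to RefSeq were counted, the log2 fold change of Bcl2l2 from 3M to 18M became -3.46 with an adjusted p of 0.614, where NM_007537 alone was counted. A same-strand gene of GENCODE, Gm20521, shares 594 bases of exon with Bcl2l2, and reads of the 2 genes were not set apart here.

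**Figure D3:**
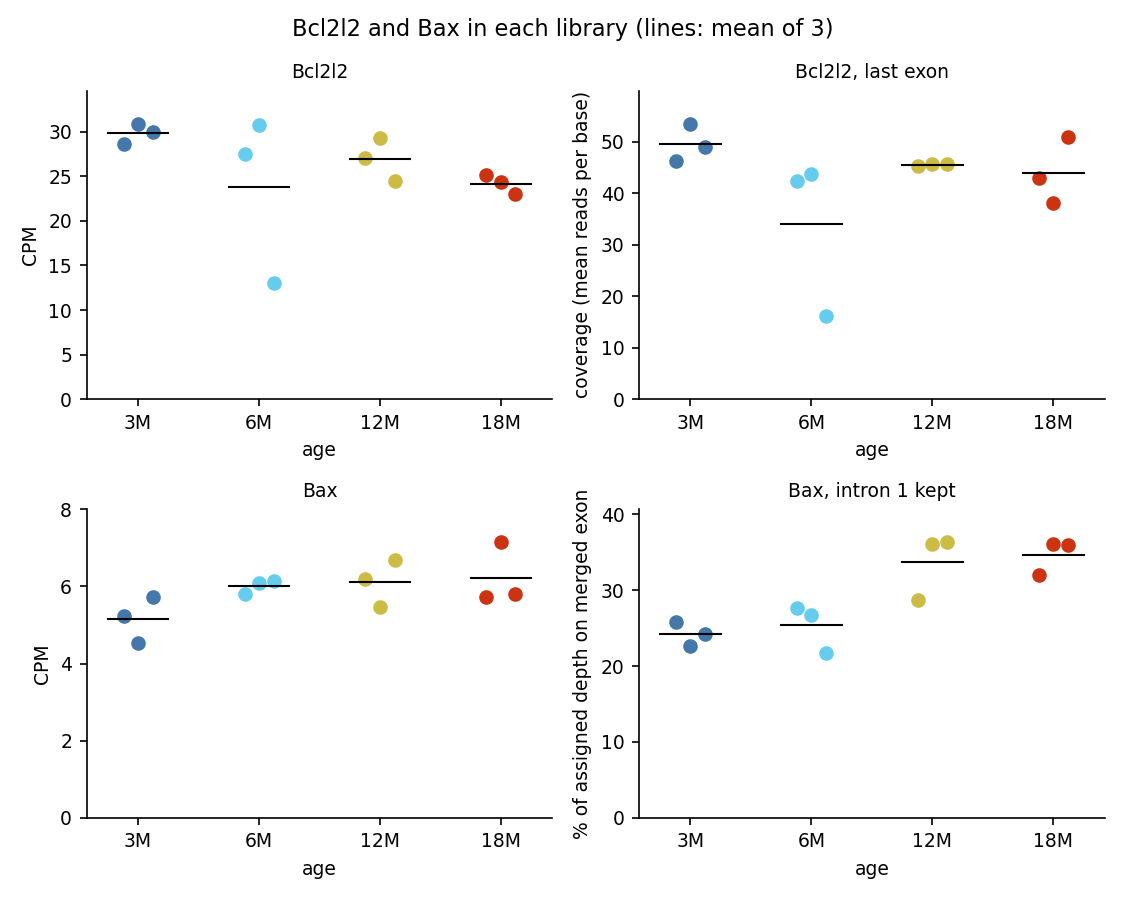
Bcl2l2 (upper row) and Bax (lower row) in each mouse by age, with a black line at the mean of 3. The upper panels plot CPM and the coverage of the last exon in reads per base, not scaled by library size. The third 6M library lies there at 13.1 CPM and 16.2 reads per base. The lower panels plot CPM and the share of the exon that keeps intron 1 in the sum of its assigned depth and that of exon 2 of NM_007527. This share lies at 21.8% to 27.6% at 3M and 6M and at 28.7% to 36.3% at 12M and 18M. It was chosen after its values were seen, and the share of reads on the form that keeps intron 1 overlaps between 3M and 18M.

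Bcl2 (chr1:106538176-106714290, minus strand) had the fewest reads of the family. The levels were 0.126, 0.155 and 0.121 FPKM at 3M, 0.122, 0.0776 and 0.141 at 6M, 0.197, 0.141 and 0.0794 at 12M and 0.103, 0.112 and 0.114 at 18M. In FPKM the 18M mice were below the 3M mice, but in reads the ages overlapped, with 34, 40 and 38 reads at 3M and 41, 32 and 52 at 18M. The edgeR log2 fold change, which uses reads, was 0.03 ± 0.19 (SE; adjusted p = 0.955), with a 95% interval of -0.42 to 0.49. The interval holds both falls and rises, so no direction can be read from it. NM_009741 took 82.8% of the reads and the single-exon NM_177410 took 17.2%. The antisense gene D630008O14Rik overlaps 558 bases of Bcl2 exons, and in libraries without strand information its reads cannot be told from those of Bcl2.

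Among the effectors, Bax (chr7:45461695-45466898, minus strand) was the gene with the largest positive difference. The CPM values were 5.23, 4.55 and 5.72 at 3M, 5.81, 6.08 and 6.13 at 6M, 6.18, 5.48 and 6.68 at 12M and 5.73, 7.15 and 5.80 at 18M. All 3 mice at 18M lay above the 3 at 3M in CPM, the closest pair being 5.73 and 5.72, while in FPKM the 2 ages overlapped. How often the 2 ages separate in CPM over all genes was not counted. The log2 fold change from 3M to 18M was 0.27 ± 0.14 (SE; unadjusted p = 0.0895, edgeR adjusted p = 0.467), and the line on age gave 0.22 ± 0.11 over 15 months (adjusted p = 0.380). Without the second 3M mouse the change was 0.19 and without the second 18M mouse 0.16, and the highest value when 1 mouse was left out was 0.35.

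The assembler divided Bax reads almost evenly between the annotated form and one that keeps the first intron. In FPKM, which scales by length, the annotated form of 869 bases held 60.8% of the gene and the other, of 1339 bases, 39.2%. NM_007527, the annotated form, took 49.99% of reads, and MSTRG.18314.1, in which exon 1, intron 1 and exon 2 are a single exon of 679 bases (chr7:45466220-45466898), took 50.01%, with a range of 38.4% to 62.4% among libraries. As a share of the sum of the depths assigned to the merged exon and to exon 2 of NM_007527, the merged exon held 25.9%, 22.6% and 24.2% at 3M, 27.6%, 26.8% and 21.8% at 6M, 28.7%, 36.1% and 36.3% at 12M and 32.0%, 36.0% and 36.0% at 18M. In this share of depth no 18M mouse fell within the 3M range, and the exact two-sided permutation p of 0.1 is the smallest that 3 against 3 can give. The share of depth was chosen after its values were seen. No count was made of how often such shares separate 3M from 18M over all transcripts. The share of Bax reads on MSTRG.18314.1 overlapped, with 44.2% to 52.1% at 3M and 48.2% to 57.4% at 18M.

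In the transcript tests MSTRG.18314.1 had a slope of 0.48 ± 0.19 on the log2 scale over 15 months (unadjusted p = 0.0286, edgeR adjusted p = 0.661), and NM_007527 had -0.04 ± 0.17 (adjusted p = 0.99998). Counting only NM_007527 turned the line of the gene on age from 0.22 to -0.04, so the direction of that line depended on counting the form that keeps the intron. The last exon of Bax had a coverage of 7.81 reads per base in the second 3M mouse, against 22.3 to 47.0 in the other 11 libraries. GENCODE lists the same-strand gene Gm45808 over 192 bases of Bax exons.

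Bak1 (chr17:27019812-27028626, minus strand), the other effector, had levels that overlapped those of Bax and was not called in any comparison. Its means were 5.19 ± 0.239 FPKM at 3M, 4.84 ± 0.484 at 6M and 5.44 ± 0.186 at 12M, and 5.01 ± 0.421 at 18M (SD, n = 3 mice each), with the single transcript NM_007523. From 3M to 18M the log2 fold change was -0.05 ± 0.09 (SE; edgeR adjusted p = 0.868). Ggnbp1 overlaps 396 bases of its exons on the opposite strand.

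Ratios of effectors to inhibitors are often used to summarise the family, and 3 were computed from FPKM in each library, with no test. Bax to Bcl2 was 37.7, 25.8 and 42.5 at 3M and 48.8, 55.0 and 45.6 at 18M, without overlap, but from reads it was 8.06, 6.48 and 8.66 at 3M and 7.90, 11.8 and 8.02 at 18M, with overlap. At 6M and 12M the FPKM ratio ran from 27.7 to 72.7, a wider range than the 2 end ages together, and the Bcl2 reads behind it were 24 to 57. Bax to Bcl2l1 was 0.111 to 0.153 at 3M and 0.142 to 0.173 at 18M, and Bak1 to Mcl1 was 0.244 to 0.292 at 3M and 0.232 to 0.272 at 18M. The ages overlapped in both of these ratios.

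Bad (chr19:6941505-6951905, plus strand) codes for a BH3-only protein that growth factor signals keep inactive by phosphorylation, and it was the most abundant BH3-only gene. Its means were 23.3 ± 0.302 FPKM at 3M, 23.3 ± 0.367 at 6M and 22.8 ± 2.20 at 12M, and 23.9 ± 0.909 at 18M (SD, n = 3 mice each). The log2 fold change from 3M to 18M was 0.00 ± 0.06 (SE; edgeR adjusted p = 0.994), the smallest of the 10.

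Bad reads were divided among 3 forms with 10% or more: NM_001285453 with 44.8%, NM_007522 with 36.7% and MSTRG.10276.3 with 10.5%. The first is annotated with a coding sequence of 486 bases from 6942875, and NM_007522 with one of 612 bases from 6942323. NM_001285453 took 38.9%, 41.9% and 38.5% of the gene's reads at 3M and 47.7%, 47.6% and 50.2% at 18M. The ages did not overlap for NM_001285453, and how often this happens over all transcripts was not counted. Its log2 fold change from 3M to 18M was 0.28 ± 0.12 (SE) with an adjusted p of 0.920 in edgeR and 0.0157 in DESeq2, below the fold minimum in both. At 6M its share ran from 33.3% to 49.2% and at 12M from 35.4% to 55.5%, so the middle ages covered both ends. Gpr137 overlaps 520 bases of Bad exons on the opposite strand.

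Bid (chr6:120893119-120916851, minus strand), whose product links death receptors to the mitochondrion once caspase-8 has cut it, was not called as a gene. The share of its reads that the assembler gave to each of 2 transcripts differed widely between libraries. The gene means were 1.99 ± 0.0899 FPKM at 3M, 2.07 ± 0.150 at 6M and 2.11 ± 0.405 at 12M, and 1.96 ± 0.0875 at 18M (SD, n = 3 mice each), and the log2 fold change from 3M to 18M was -0.13 ± 0.10 (SE; edgeR adjusted p = 0.612).

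The annotated transcript NM_007544 took 55.7% of Bid reads and the assembled MSTRG.17384.2 took 44.3%. NM_007544 held 221, 92 and 223 reads at 3M, 213, 197 and 249 at 6M, 15, 198 and 49 at 12M and 25, 0 and 17 at 18M. It held most of the gene's reads in 6 libraries, among them all 3 at 6M and none at 18M, and its reads at 3M all exceeded those at 18M. How often reads separate in this way over all transcripts was not counted. Its log2 fold change from 3M to 18M was -3.82 ± 1.37 (SE), with an edgeR adjusted p of 0.911, unadjusted p of 0.0367, and a DESeq2 adjusted p of 0.0409. For the slope on age edgeR gave an adjusted p of 0.626 and DESeq2 0.00977, so the call depended on the tool.

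The 2 Bid transcripts have the same coding exons. They differ in a first exon of 87 or 25 bases and in 115 bases at the 3′ end (chr6:120893119-120893233), which only NM_007544 keeps. The depth of those 115 bases alone was not measured. Summed over both transcripts, the last exon had a coverage of 12.4 to 13.96 reads per base at 3M and 11.9 to 17.8 at 18M. The first exon of NM_007544 had at most 5.43 reads per base in any library and that of MSTRG.17384.2 at most 3.80.

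Across all 30 member transcripts, 28 were tested for a slope and 0 had an edgeR adjusted p of 0.05 or less, beside 0.00881% of all transcripts tested. At an unadjusted p of 0.05 or less were 2 of 28, NM_007544 of Bid downward and MSTRG.18314.1 of Bax upward, beside 6.99%. Between 3M and 18M, 26 were tested and 0 were called with the fold minimum, beside 0.108%, and 1, NM_007544, was at an unadjusted p of 0.05 or less, beside 5.40%. DESeq2 called 1 member transcript in each of the 2 tests, NM_007544 both times.

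**Figure D4:**
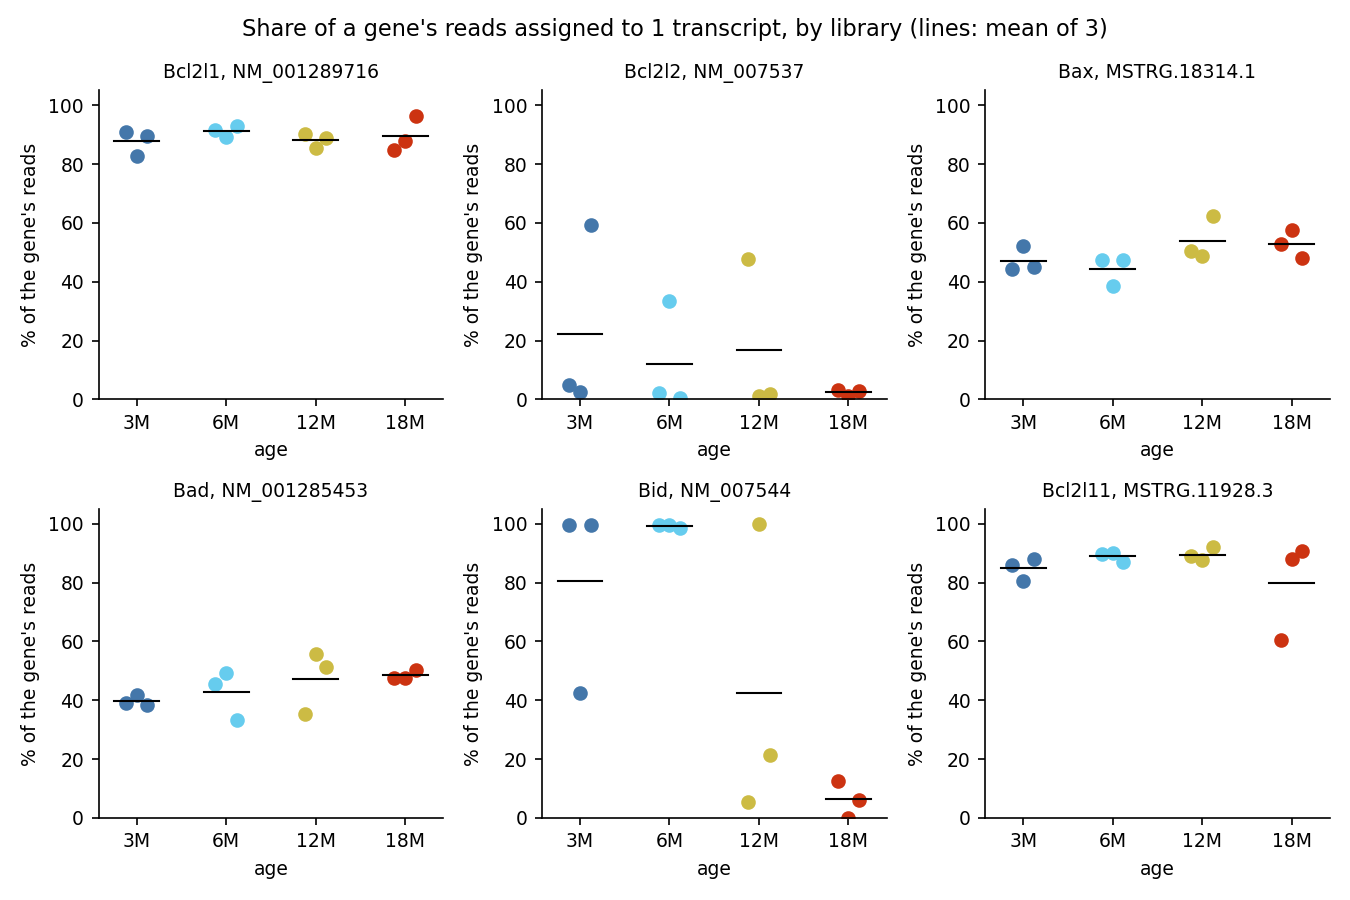
Percentage of a gene's reads assigned to 1 of its transcripts (vertical axes, 0 to 100%) in each mouse, by age, with a black line at the mean of 3. NM_001289716 of Bcl2l1 stays between 82.8% and 96.3%, whereas NM_007544 of Bid runs from 0% to 100% and NM_007537 of Bcl2l2 from 0.403% to 59.1%.

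Bik (chr15:83526862-83544635, plus strand), a BH3-only gene whose loss together with that of Bcl2l11 blocks sperm production in mice, was assembled as 1 transcript, NM_007546. Its means were 3.52 ± 0.365 FPKM at 3M, 3.57 ± 0.637 at 6M and 3.996 ± 0.426 at 12M, and 3.34 ± 0.457 at 18M (SD, n = 3 mice each). From 3M to 18M the log2 fold change was -0.07 ± 0.14 (SE; edgeR adjusted p = 0.871).

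Bcl2l11 (chr2:128122239-128162547, plus strand), the gene of the activator BIM, had means of 2.07 ± 0.141 FPKM at 3M, 2.19 ± 0.210 at 6M and 2.36 ± 0.255 at 12M, and 2.28 ± 0.111 at 18M (SD, n = 3 mice each). Its log2 fold change from 3M to 18M was 0.10 ± 0.17 (SE; edgeR adjusted p = 0.840). Most of the reads, 86.7%, lay on MSTRG.11928.3, an assembled transcript of 11026 bases whose first exon of 6518 bases begins 3799 bases before the RefSeq start at 128126038. Without the first 18M mouse, which had 874 reads, the log2 fold change was 0.28. The share of MSTRG.11928.3 was 60.4% in that mouse and 80.6% to 91.9% in the other 11 libraries, and an Acoxl transcript that shares 10482 of its bases had 181 reads there and 0 to 101 elsewhere. Acoxl lies on the same strand, so reads in the shared bases were divided between the genes by the assembler.

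BIM is made in an extra-long, a long and a short form by alternative splicing. The stretch of 168 bases, or 56 codons, that separates the extra-long from the long form lies at chr2:128128757-128128924 (mm10, GENCODE vM21, plus strand) and is shown because it is the sequence that NM_207680 keeps and NM_207681 lacks.

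Bcl2l11 168 bases: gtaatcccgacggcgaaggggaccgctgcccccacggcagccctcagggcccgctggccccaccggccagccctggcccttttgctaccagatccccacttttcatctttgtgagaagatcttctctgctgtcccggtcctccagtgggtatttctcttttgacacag

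The stretch lies within exon 2 of NM_207680, whose assigned depth was 1.52 to 5.57 reads per base. It ranged from 1.52 to 4.08 at 3M and from 2.96 to 5.57 at 18M, and these overlapped. The depth of the 168 bases alone was not measured.

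The 13 other BCL2 family genes in the table included the highest of all. Bcl2l14, which codes for BCL-G, stood at 185 FPKM with a range of 163 to 198, and Bcl2l12 at 23.8 FPKM. In the slope on age 11 were tested and 0 called by edgeR, and 2 were at an unadjusted p of 0.05 or less, beside 15.4% of all genes. Bcl2l14 was 184, 163 and 179 FPKM at 3M and 187, 189 and 198 at 18M. Its range was wholly higher at 18M, beside 8.36% of all genes. The slope of Bcl2l14 was 0.12 ± 0.04 on the log2 scale over 15 months (edgeR adjusted p = 0.255). Bmf, a BH3-only gene linked to the cytoskeleton, was 0.323, 0.366 and 0.350 FPKM at 3M and 0.259, 0.247 and 0.179 at 18M, with a slope of -0.59 ± 0.21 over 15 months (adjusted p = 0.231). Between 3M and 18M 10 were tested, 0 were called and 1, Bmf, was at an unadjusted p of 0.05 or less, beside 12.0%.

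Of 16 genes that act at the mitochondrion or downstream of it, 0 were called by edgeR in the slope on age. At an unadjusted p of 0.05 or less were 4, all lower with age, beside 15.4% of all genes in either direction. These were 3 inhibitor of apoptosis genes and caspase-9: the slopes were -0.14 ± 0.05 for Birc2, -0.25 ± 0.10 for Xiap, -0.44 ± 0.19 for Birc3 and -0.16 ± 0.07 for Casp9 on the log2 scale over 15 months (adjusted p from 0.216 to 0.298). Birc5, also on this list, was not among them, with 37.7 ± 2.83 FPKM at 3M and 37.8 ± 0.790 at 18M (SD, n = 3 mice each). Vdac3 and Vdac2, channels of the outer membrane, had the highest levels at 188 and 108 FPKM and slopes of 0.02 and 0.00. Between 3M and 18M, 2 of 16 were at an unadjusted p of 0.05 or less, beside 12.0% of all genes, Birc2 at -0.12 ± 0.04 and Diablo at 3.93 ± 1.59, and 0 were called.

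Diablo, whose product relieves the block by XIAP, was named after its values were seen, because 3 libraries stood apart. Its transcript NM_023232 had 11796, 14889 and 14249 reads in the first 6M, the second 12M and the second 18M mouse, and 212 to 437 reads in the other 9. In the same 3 libraries the transcript MSTRG.16132.1 of Vps33a, which shares an end with it at position 123511330 of chromosome 5, had 3514, 1144 and 2244 reads, against 11493 to 23740 in the others.

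The death receptor pathway had 0 of 10 genes called by edgeR in the slope on age, and 2 at an unadjusted p of 0.05 or less, both lower with age, beside 15.4% of all genes in either direction. Ripk1, the kinase next to the TNF receptor, was 3.02, 2.94 and 2.83 FPKM at 3M and 2.48, 2.52 and 2.46 at 18M. Its range was wholly lower at 18M, beside 8.37% of all genes. The slope of Ripk1 was -0.24 ± 0.06 over 15 months (edgeR adjusted p = 0.142). Cflar, the inhibitor of caspase-8, had a slope of -0.30 ± 0.09 (adjusted p = 0.177). Tnfrsf1a, the TNF receptor, was highest at 6.38 FPKM, with a slope of -0.14 ± 0.09 (adjusted p = 0.508). Between 3M and 18M, 1 of 10, Ripk1, was at an unadjusted p of 0.05 or less, beside 12.0%, and 0 were called.

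**Figure D5:**
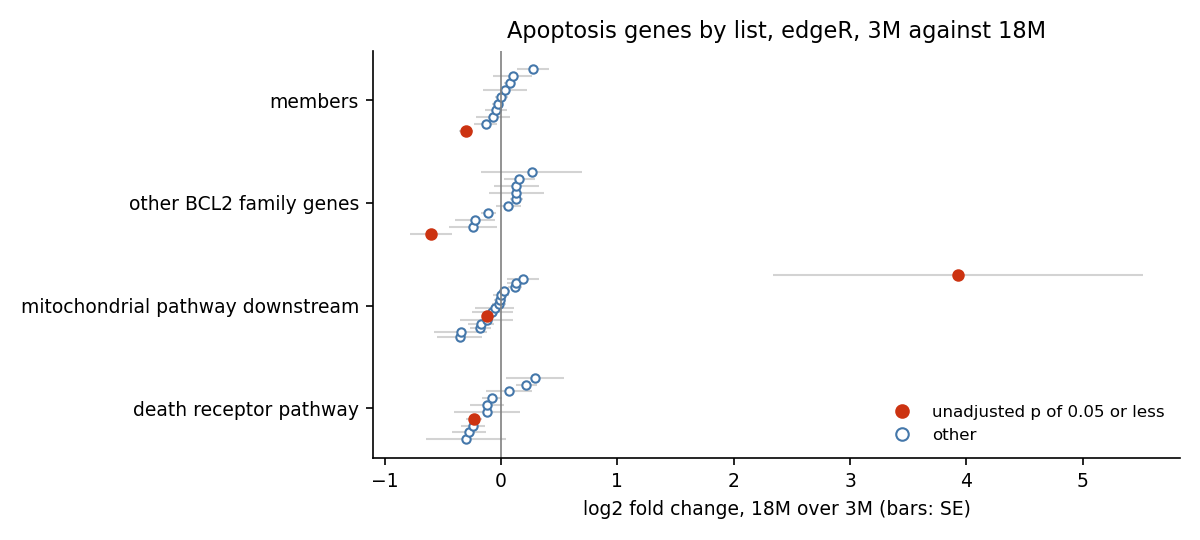
Log2 fold change from 3M to 18M of each tested gene (horizontal axis, bars are SE), grouped by list, with filled red circles for genes at an unadjusted p of 0.05 or less. The filled points are 1 member, 1 other family gene, 2 genes of the mitochondrial pathway list and 1 death receptor gene, and the point at 3.93 is Diablo.

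Markers of the cell types of the testis were checked beside these results. All 9 Sertoli, 6 Leydig, 7 spermatogonia, 7 spermatocyte, 7 spermatid, 6 macrophage and 6 peritubular and endothelial markers were detected, and 4 of 5 blood cell markers were found, while 2 of 5 epididymis markers were at 0 in all libraries and the list summed to at most 0.233 FPKM. The Leydig list summed to 967 to 1118 FPKM at 3M and 681 to 941 at 18M, and 2 of 6 were called lower in the slope on age, beside 0.172% of all genes, and 5 of 6 were at an unadjusted p of 0.05 or less, beside 15.4%. The spermatid list summed to 22599 to 24913 FPKM at 3M and 23126 to 27702 at 18M, with 3 of 7 at an unadjusted p of 0.05 or less, all higher. In the other lists 0 genes were called, and at an unadjusted p of 0.05 or less were 1 spermatogonia, 1 macrophage and 2 peritubular and endothelial markers, all lower, and 0 Sertoli, spermatocyte, blood cell and epididymis markers. The part of any of these lists in the values of Bcl2l2 and Bax was not tested.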

How the data were processed

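Total RNA of whole testes was depleted of ribosomal RNA and sequenced as paired ends without strand information, 1 library for each of 3 mice at each of 4 ages. Per the labels and the study's methods, the authors aligned reads to mm10 with HISAT2 and assembled transcripts with StringTie 1.3.3b and deposited estimated counts of reads per transcript as whole numbers. The FPKM values in the same table were computed by the authors with StringTie, which scales fragments by transcript length and library size. Exon coverage, the mean depth StringTie assigned to each transcript's exon, came from the deposited assembly files of each library.

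From these, reads and FPKM were summed per gene symbol over transcripts equal to, contained in or sharing splice sites or exons with an annotated transcript, and all other transcripts were kept per locus so that library sizes held every read. For genes and transcripts, edgeR 4.0.16 was run in R 4.3.3 (TMM, filterByExpr, quasi-likelihood test, Benjamini-Hochberg adjustment over all features tested). The threshold was an adjusted p of 0.05, in comparisons of 2 ages with a log2 fold change of at least 1. Comparisons of 2 ages used their 6 libraries, and the slope and the test of any difference used 12. Alternatives were DESeq2 1.42.0, library size or DESeq2 size factors in place of TMM, no filter on low counts, transcripts equal to RefSeq only, all 12 libraries in 1 fit, no fold minimum, the replicate number as a block and each library left out. The tests were run on simulated counts with a common dispersion for all genes and added changes of a log2 fold change of at least 1. That check does not cover changes as small as those of the members.

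All 10 members are named, with each transcript that held 10% or more of its gene's reads or had an unadjusted p of 0.05 or less in the slope. Of other lists, genes at an unadjusted p of 0.05 or less in the slope or between 3M and 18M (at most the 4 with the smallest p) and the 2 with the highest level are named. The lists were other BCL2 family genes, genes at or downstream of mitochondria, the death receptor pathway and cell type markers. The members and lists were chosen with earlier results of these data known. The replicates were separate mice, and same-numbered libraries of different ages did not deviate together, with correlations of -0.04 to 0.07.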

Additional observations from a re-analysis of the deposited data

Results flagged for a closer look

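One transcript under the symbol Bcl2l1 lay outside the sums because it was assembled within an intron. MSTRG.12144.3, of 989 bases, held 451 reads over the 12 libraries. It had 12, 11 and 107 reads at 3M, 16, 18 and 12 at 6M, 53, 14 and 70 at 12M and 12, 35 and 91 at 18M. The values at 3M and 18M overlapped, and 483 of its bases overlap exons of other Bcl2l1 transcripts.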

How the results depend on the processing

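In 92 counts under the alternatives, 0 members were called. Between pairs of ages a call also needed the fold minimum, except in the setting without it. Most changes of the members were smaller than this minimum, so 0 calls there say little about small changes. DESeq2 gave Bcl2l2 an adjusted p of 0.0212 between 3M and 18M, and only the fold minimum kept it from being called. Of 323 changes of single members, 290 kept their direction and 33 reversed. For Bad between 3M and 18M the value became -0.0023 with DESeq2, -0.0025 with its size factors and -0.0017 with all 12 libraries. With RefSeq transcripts only, the slopes over 15 months became 0.084 for Bad and -0.039 for Bax.

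With 1 library left out, the slope over 15 months ran from -0.090 to 0.076 for Bcl2, -0.029 to 0.014 for Bcl2l1, -0.023 to 0.076 for Bak1, -0.046 to 0.014 for Bad and -0.089 to 0.079 for Bik. The fold change from 3M to 18M ran from -0.0095 to 0.11 for Bcl2, -0.049 to 0.0044 for Bcl2l1, -0.12 to 0.0031 for Bak1, -0.031 to 0.020 for Bad, -0.19 to 0.0041 for Bik and -0.0023 to 0.28 for Bcl2l11. For Bcl2l2 it ran from -0.33 to -0.27.

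Genes called over the whole table moved more. DESeq2 called 559 in the slope against 43, 379 against 20 for any difference, 52 against 13 between 3M and 18M, 53 against 15 between 3M and 6M, 55 against 8 between 6M and 12M and 28 against 5 between 12M and 18M. For transcripts it called 1075 against 5 in the slope and 1261 against 59 between 3M and 18M, with 1 member transcript in each. RefSeq transcripts only gave 9 genes in the slope, 39 between 3M and 18M and 17 between 6M and 12M. All 12 libraries in 1 fit gave 21 between 3M and 18M, 4 between 3M and 6M and 1 between 12M and 18M. With 1 library left out the counts ran from 13 to 114 in the slope (without the third and the first 18M mouse), 15 to 44 for any difference, 15 to 30 between 3M and 18M, 17 to 35 between 3M and 6M, 9 to 22 between 6M and 12M and 7 to 20 between 12M and 18M. The cause was not tested.

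The replicate number as a block gave 22 genes in the slope, 0 between 3M and 18M, 5 between 3M and 6M, 2 between 6M and 12M and 1 between 12M and 18M, and 3 and 0 transcripts in the slope and between 3M and 18M. Same-numbered samples showed no shared deviation, since 0 of 18 same-numbered pairs had a correlation over 0.1 and 4 of 12 libraries were closest to their own number. These correlations do not tell whether mice shared a litter or a day. The study could not say whether mice of an age were littermates.

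The mean ratio of Bax to Bcl2 was 45.3 in FPKM, 9.15 in CPM and 27.5 with RefSeq transcripts only. Bax to Bcl2l1 was 0.152, 0.0634 and 0.0969, and Bak1 to Mcl1 was 0.268 and 0.154 in CPM. In the order of levels 4 genes kept their place in CPM per kilobase and 2 with RefSeq transcripts only. As a share of FPKM, NM_001285453 took 53.5% of Bad, MSTRG.18314.1 39.2% of Bax, NM_009741 58.8% of Bcl2 and MSTRG.11928.3 70.0% of Bcl2l11. Depth limits Bcl2 most, with 24 to 57 reads.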
